A study of Mus musculus with 8 samples.

Results

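Long-term hematopoietic stem cells (LT-HSC) of wild-type origin were compared with wild-type multipotent progenitors (MPP), using 4 of the 8 libraries of the study. The 4 members were chosen by the cell type and genotype in their labels and not by any measured value: LT-HSC WT 1 and 2 and MPP WT 1 and 2. Both populations came from the bone marrow of mice of a strain labelled CD57BL/6, given as 6 months old, that had received wild-type marrow 20 weeks earlier. The genotype of the recipients, the share of recipient cells left in the marrow, the sort gates and the number of animals behind each library are not given. The other 4 libraries, LT-HSC KO and MPP KO, came from mice that had received Tet1 knockout marrow, and were used for 1 comparison at the end. Each LT-HSC library was made from 10000 cells and each MPP library from 100000 cells, as poly(A) RNA read in pairs of 50 bp.

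LT-HSC sit at the top of the blood hierarchy: they divide rarely, renew themselves and can rebuild all blood lineages for the life of the animal. MPP are their offspring, which have lost lasting self-renewal, divide more often and begin to express genes of the lymphoid and myeloid branches at low levels, a state called lineage priming. Surface proteins such as Slamf1 (CD150), Kit, Ly6a (Sca-1), Cd48, Cd34 and Flt3 are commonly used to sort the populations, so their transcripts may reflect the unstated gates as well as the cells.

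Of 17893 genes present in both deposited tables, 14660 had enough counts to be tested. At an adjusted p under 0.05 (edgeR's quasi-likelihood test with Benjamini-Hochberg adjustment, used for every adjusted p below unless another tool is named), 2544 genes (17.4%) were higher in LT-HSC and 2478 genes (16.9%) were lower. Over 2-fold differences were called for 1631 higher and 1370 lower genes. The median log2 fold change of all tested genes, LT-HSC over MPP, was 0.02, and 51.3% of them were above 0. Without MPP WT 1 the counts were 1308 higher and 1313 lower, and without MPP WT 2 they were 1288 and 1176. With 1 MPP library left, that library was assumed to vary like the LT-HSC pair. Correlations of log CPM (counts scaled to library size, with TMM factors) were 0.975 within LT-HSC, 0.992 within MPP and 0.864 to 0.875 across populations.

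Population went together with cell input, deposited table and depth, so these cannot be told apart. Total counts were 5477741 and 4973882 in the LT-HSC libraries and 11909633 and 12013485 in the MPP libraries. A count of 0 therefore allows up to 0.576 or 0.584 CPM per LT-HSC library and 0.248 or 0.25 CPM per MPP library, counting error only. The p-values measure the spread between 2 libraries per group (n = 2 throughout), which may be technical, because separate animals are not named. In libraries of pooled cells, fewer cells of a type and less RNA per cell cannot be told apart. The 4 Y-linked genes measured were at a summed level of 151 to 174 CPM in all 4 libraries, and none passed the test (edgeR).

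**Figure D1:**
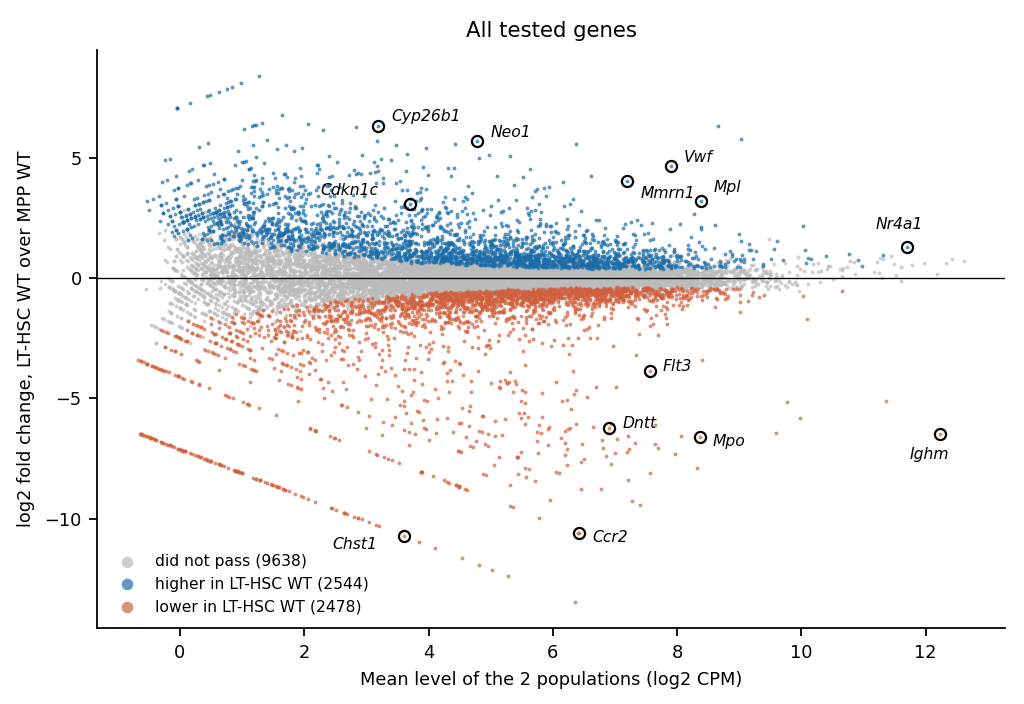
Each point is 1 of 14660 tested genes, with its mean level over both populations (log2 CPM, x axis) against its log2 fold change (LT-HSC WT over MPP WT, y axis), coloured by call. The 2544 higher and 2478 lower genes spread over the whole range of levels, and the straight bands at the lower left are genes with almost no LT-HSC counts, whose fitted value depends on the prior count.

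The 6 marker genes were measured first, as a check of the labelled populations. Slamf1 (chr1:173697258-173731315, mm9), the receptor CD150, was at 54.7 and 70.3 CPM in the LT-HSC libraries and 9.52 and 9.34 CPM in the MPP libraries, a log2 fold change of 2.73 ± 0.19 (SE). Procr (chr2:155576853-155581207), the endothelial protein C receptor, was at 78.9 and 67.2 CPM against 14.5 and 14.4 CPM, 2.34 ± 0.16. Vwf (chr6:125496792-125636697), which encodes von Willebrand factor and marks platelet-biased stem cells, was at 510 and 408 CPM against 19.04 and 17.4 CPM, a 25.2-fold difference. Both LT-HSC libraries were above both MPP libraries for each of these 3 genes.

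The 3 progenitor markers went the other way, again without overlap between the groups. Flt3 (chr5:148142317-148212065), the cytokine receptor that MPP gain as they leave the stem cell state, was at 24.4 and 23.6 CPM in LT-HSC and 363 and 343 CPM in MPP, a log2 fold change of -3.88 ± 0.13. Dntt (chr19:41103765-41134013), the terminal transferase of lymphoid receptor rearrangement, was at 2.88 and 3.51 CPM against 238 and 236 CPM, a 74.0-fold difference. Mpo (chr11:87607083-87617915), the myeloperoxidase of primary granules, was at 7.10 and 6.23 CPM against 641 and 664 CPM, a 97.6-fold difference. Adjusted p ranged from 4.45e-05 (Dntt and Mpo) to 0.00035 (Slamf1).

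**Figure D2:**
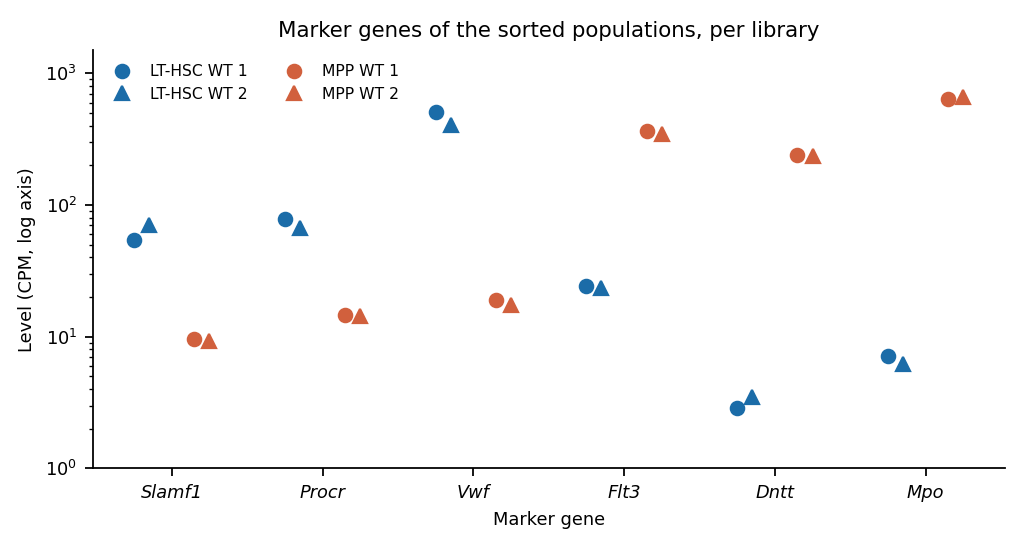
Level of each marker gene (CPM, log axis) in the 2 LT-HSC WT libraries (blue) and the 2 MPP WT libraries (orange). Slamf1, Procr and Vwf lie higher in both LT-HSC libraries, and Flt3, Dntt and Mpo lie higher in both MPP libraries, with Dntt at 2.88 and 3.51 CPM in LT-HSC.

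The gene lists used from here on were written with earlier results of these data known. Their counts describe the members and are not independent evidence. Each count is to be read beside the 17.4% higher and 16.9% lower of all tested genes. Surface receptors on the stem cell list were higher in LT-HSC almost throughout. Here and below, measured members are those in both tables that passed the filter on low counts. A gene with 0 counts in 1 population passed that filter only through the other, so only 1 direction was open to it. Of 20 measured, 18 were higher, 0 were lower and 2 did not pass, with a median log2 fold change of 1.57 beside 0.02 for all genes. Neo1 (chr9:58722486-58884248), the netrin and repulsive guidance receptor neogenin, was at 52.4 and 55.3 CPM in LT-HSC and 1.08 and 1.00 CPM in MPP, a 51.2-fold difference with an adjusted p of 6.26e-05. Tek, the angiopoietin receptor Tie2, was at 90.0 and 79.6 CPM against 10.7 and 11.8 CPM, and the adhesion molecule Esam was at 95.8 and 89.2 CPM against 12.7 and 13.3 CPM. For these 3 genes the libraries of a population lay close together and far from the other population. The C-type lectin Clec1a was also higher, by 4.29 ± 0.30.

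Some receptors commonly used for sorting had small or uncertain differences. Kit, the stem cell factor receptor of both populations, was at 590 and 602 CPM against 433 and 441 CPM (log2 fold change 0.45 ± 0.12, adjusted p = 0.0345) and lost its call without MPP WT 1 (adjusted p = 0.377) or MPP WT 2 (0.357). Ly6a was at 254 and 108 CPM in LT-HSC and 113 and 92.0 CPM in MPP, so that the groups overlapped (0.82 ± 0.38, adjusted p = 0.138). Alcam was the other member that did not pass, at 0.15 ± 0.13.

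Transcription factors of stem cells followed, with 14 of 21 higher, 1 lower, 6 not passing and a median of 1.26. Mycn, the growth-promoting factor N-Myc, was at 63.3 and 76.1 CPM in LT-HSC and 9.69 and 8.67 CPM in MPP, 2.92 ± 0.18. Gfi1b, a transcriptional repressor that acts in stem, erythroid and megakaryocyte cells, was at 132 and 116 CPM against 30.0 and 25.8 CPM, 2.16 ± 0.15. For both genes the LT-HSC libraries were far above both MPP libraries. The growth suppressor gene Ndn (4.32 ± 0.51) and the bHLH factor gene Tcf15 (3.39 ± 0.41) had large folds on few counts, with 7 and 23 counts over the MPP libraries.

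Mecom, whose EVI1 product sustains self-renewal, was at 177 and 206 CPM in LT-HSC and 61.5 and 73.4 CPM in MPP, 1.504 ± 0.15 (adjusted p = 0.00137). Nkx2-3, a homeobox gene, was higher by 1.86 ± 0.14. Hlf, a bZIP factor often used as a stem cell reporter, did not pass: it was at 192 and 256 CPM against 194 and 202 CPM, and the groups overlapped (0.18 ± 0.16, adjusted p = 0.434). Bmi1, the Polycomb protein known for stem cell maintenance, was the member that was lower, at 36.7 and 48.3 CPM against 63.0 and 74.0 CPM (-0.69 ± 0.18, adjusted p = 0.0315). That call ended without LT-HSC WT 1 (0.0519), MPP WT 1 (0.0538) or MPP WT 2 (0.221), and without a filter on low counts (0.0555).

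Genes of megakaryocytes and platelets were higher in LT-HSC as a group. Of 17 measured, 13 were higher, 0 were lower and 4 did not pass, with a median log2 fold change of 2.68. Beside Vwf, the alpha-granule protein gene Mmrn1 was at 241 and 314 CPM in LT-HSC and 16.4 and 17.1 CPM in MPP, 4.05 ± 0.18. The platelet chemokine gene Pf4 was at 151 and 119 CPM against 9.35 and 7.67 CPM, 3.99 ± 0.20. Itga2b, the platelet integrin CD41, was at 621 and 449 CPM against 92.1 and 74.9 CPM, 2.68 ± 0.21. These groups did not overlap.

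The secreted chaperone gene Clu, the caveolae gene Sdpr and Gp1bb, a subunit of the receptor for von Willebrand factor, were higher by 4.62 ± 0.34, 4.26 ± 0.27 and 4.26 ± 0.21. Selp (0.50 ± 0.20) and Plek (-0.04 ± 0.15), which encode platelet P-selectin and pleckstrin, did not pass (adjusted p = 0.0993 and 0.851). The summed level of the 17 genes was 2543 and 2432 CPM in LT-HSC and 794 and 817 CPM in MPP, or 2226 and 2044 CPM against 457 and 429 CPM without Plek. Erythroid genes, which share upstream regulators with this lineage, were mixed: 4 of 14 were higher and 3 lower (1 without MPP WT 1 and 0 without MPP WT 2), with a median of 0.40, and 7 were higher without LT-HSC WT 2. Among them Gata1, the factor of the erythroid and megakaryocyte lineages, was at 65.6 and 53.9 CPM against 25.6 and 24.5 CPM (1.25 ± 0.16), while Klf1, the erythroid factor, overlapped between groups (-0.36 ± 0.26, adjusted p = 0.324). The erythroid shares in the main fit, 28.6% higher and 21.4% lower, stood beside 17.4% and 16.9% of all tested genes.

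Promoter sequences of 3 platelet genes are shown, since 13 of the 17 genes were higher. They belong to the called members with the largest differences among those whose promoter holds either of the letters searched. ETS family and GATA factors regulate this lineage. Capitals mark letters that the first family reads, ACTTCC, and letters that factors of the other family such as Gata1 read, which are AGATAA, on either strand. Each window runs from 250 bases before to 50 after the RefSeq start, on GRCm38.p6: Mmrn1 at chr6:60944067-60944366 (plus strand), Pf4 at chr5:90772185-90772484 (plus strand) and Gp5 at chr16:30310732-30311031 (minus strand). Gp5 encodes a platelet glycoprotein and was higher by 2.70 ± 0.19.
Mmrn1: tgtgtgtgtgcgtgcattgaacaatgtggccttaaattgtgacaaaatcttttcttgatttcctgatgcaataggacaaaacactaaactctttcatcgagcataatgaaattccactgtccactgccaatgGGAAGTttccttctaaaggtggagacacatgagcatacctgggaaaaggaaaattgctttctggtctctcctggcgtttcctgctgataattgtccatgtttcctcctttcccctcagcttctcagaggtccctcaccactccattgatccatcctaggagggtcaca
Pf4: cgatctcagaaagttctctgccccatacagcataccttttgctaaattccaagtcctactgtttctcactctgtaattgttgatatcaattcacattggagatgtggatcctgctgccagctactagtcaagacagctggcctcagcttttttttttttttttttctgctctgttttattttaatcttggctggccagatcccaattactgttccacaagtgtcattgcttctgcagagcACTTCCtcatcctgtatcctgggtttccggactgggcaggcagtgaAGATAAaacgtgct
Gp5: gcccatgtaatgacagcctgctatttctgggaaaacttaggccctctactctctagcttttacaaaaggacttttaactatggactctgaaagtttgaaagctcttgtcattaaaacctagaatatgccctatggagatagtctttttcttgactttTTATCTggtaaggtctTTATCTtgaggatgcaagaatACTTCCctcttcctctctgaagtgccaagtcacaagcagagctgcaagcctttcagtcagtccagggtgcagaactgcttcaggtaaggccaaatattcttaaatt
ACTTCC was held by 7 of the 11 list members with a promoter in the table (63.6%) and by 23.8% of all 32851 promoters, and AGATAA by 2 of 11 (18.2%, Pf4 and Gp5) and 11.2%. ACTTCC is not particular to the platelet list. It was also held by 44.4% of DNA replication, 43.5% of interferon response and 24% of mitosis genes with a promoter. A match is a description of letters, not a bound site.

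Genes of early lymphoid priming went the other way: 12 of 15 were lower in LT-HSC, 1 was higher and 2 did not pass, with a median log2 fold change of -3.39. Il7r, receptor of a cytokine that lymphoid progenitors depend on, was at 0.384 and 0.584 CPM in LT-HSC and 24.0 and 24.9 CPM in MPP, -5.62 ± 0.33. Satb1, a chromatin organizer of lymphoid commitment, was at 8.06 and 13.4 CPM against 244 and 251 CPM, -4.52 ± 0.23. Ccr7, a homing chemokine receptor, was at 2.30 and 3.70 CPM against 62.4 and 59.8 CPM, -4.34 ± 0.24. For these 3 genes both MPP libraries were far above both LT-HSC libraries, and the MPP libraries differed little from each other.

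Cd48, the SLAM receptor absent from the surface of LT-HSC, was at 6.52 and 6.04 CPM in LT-HSC and 119 and 134 CPM in MPP, -4.33 ± 0.17. The lower members of this list include Cd48, which is commonly used for sorting, and the marker Dntt. Ikzf3, the lymphoid zinc finger factor Aiolos, was lower (-4.30 ± 0.19). Cd34, the surface sialomucin that rises as stem cells become progenitors, was at 77.5 and 73.0 CPM against 305 and 300 CPM, -2.01 ± 0.12. The member that was higher, Bcl11a, a lymphoid zinc finger factor, was at 157 and 151 CPM against 118 and 110 CPM (0.43 ± 0.12, adjusted p = 0.0359), and its call ended without MPP WT 1 (0.281) or MPP WT 2 (0.434), without a filter on low counts (0.0576) and with DESeq2 (0.0749). Several of these genes are also expressed by B cells, whose own markers other than the immunoglobulin gene Ighm summed to 61.9 and 62.0 CPM in LT-HSC and 791 and 795 CPM in MPP. The part of B lineage RNA in these differences was not tested.

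Myeloid progenitor genes were lower as well: 17 of 20 were lower, 0 higher and 3 not passing, median -2.21. Elane, neutrophil elastase, was at 0.96 and 0.974 CPM in LT-HSC and 110 and 103 CPM in MPP, -6.77 ± 0.21. Ctsg, the granule protease cathepsin G, was at 3.07 and 0.195 CPM against 221 and 223 CPM, -7.07 ± 0.50. Cebpa, the factor that starts granulocyte and monocyte differentiation, was at 1.73 and 4.09 CPM against 70.0 and 66.9 CPM, -4.55 ± 0.31. The groups were far apart for all 3 genes, and the 2 LT-HSC libraries differed from each other for Ctsg, with 16 counts and 1 count. Clec12a, a myeloid lectin, had 4 counts in LT-HSC and 1218 in MPP. With 1 count over both LT-HSC libraries, Ms4a3, a gene of granulocyte and monocyte progenitors, was 308 times higher in MPP (95% interval 55.1 to 12187), and Ly86, a myeloid surface protein partner, 302 times (54.0 to 11950).

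Genes of mature neutrophils and monocytes were at low levels in LT-HSC: 9 of 11 were lower, 0 higher and 2 not passing. Their median was -6.08, or -2.84 with genes at 0 counts in LT-HSC set to their bound. Ccr2, the monocyte chemokine receptor, had 1 count over the LT-HSC libraries and 4115 over the MPP libraries, a ratio of 1768 (95% interval 317 to 69865). S100a8, Lcn2 and Ngp, neutrophil genes, had 0 counts in both LT-HSC libraries and stood at 2.48 and 2.92, 2.15 and 2.00, and 1.49 and 1.17 CPM in MPP, at least 9.31-fold, 7.16-fold and 4.58-fold higher there. Such genes passed the filter only through the MPP libraries and could only be lower in LT-HSC. With a mean of at least 50 raw counts, 5 members of this list were tested, and 4 were lower and 0 higher. Lyz2, lysozyme of monocytes and granulocytes, did not pass and was higher in LT-HSC on average, at 230 and 122 CPM against 104 and 85.5 CPM (0.90 ± 0.29, adjusted p = 0.0591). The summed level of the 11 genes was 241 and 137 CPM in LT-HSC and 431 and 415 CPM in MPP. Most of the LT-HSC sum was Lyz2, and without it the sums were 10.6 and 14.02 CPM in LT-HSC and 327 and 329 CPM in MPP. The part of mature cells in the differences of the myeloid progenitor genes was not tested.

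**Figure D3:**
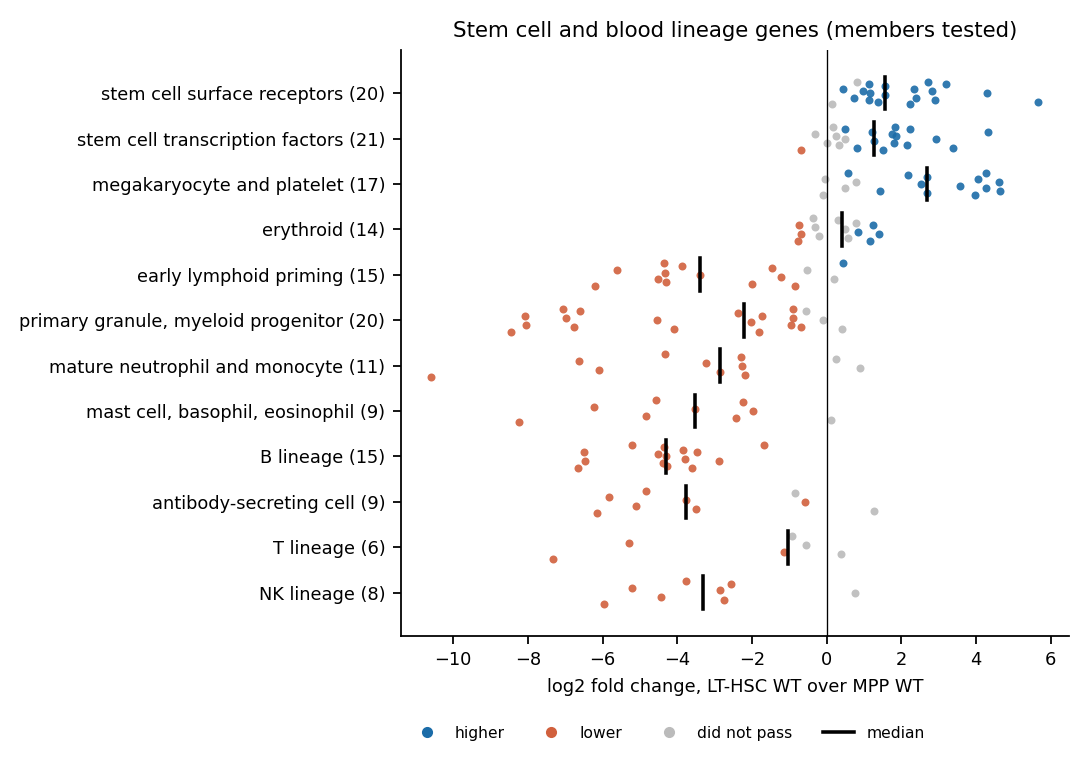
Log2 fold change (LT-HSC WT over MPP WT) of each tested member of 12 gene lists, with the median as a black bar and genes without LT-HSC counts drawn at their bound. Stem cell and megakaryocyte lists lie to the right of 0 (medians 1.57, 1.26 and 2.68), the lymphoid, myeloid, mast cell, B, plasma, T and NK cell lists lie to the left, and erythroid genes lie on both sides (median 0.40).

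Markers of mature cells were measured to see what else the MPP libraries held. All 15 B lineage genes measured were lower in LT-HSC, with a median log2 fold change of -4.31. Pax5, the factor that fixes B cell identity, was at 4.03 and 3.12 CPM in LT-HSC and 40.4 and 38.4 CPM in MPP (-3.46 ± 0.22). Ebf1, its upstream partner, was at 5.76 and 8.37 CPM against 80.5 and 93.0 CPM (-3.62 ± 0.22). Ighm, the heavy chain constant gene of immunoglobulin M, was at 136 and 76.3 CPM against 9354 and 9729 CPM, an 89.7-fold difference. The precursor receptor genes Igll1 and Vpreb1 had 0 counts in LT-HSC and were at least 37.2-fold and 20.8-fold higher in MPP. Summed over the list, the level was 198 and 138 CPM in LT-HSC and 10149 and 10520 CPM in MPP, a 61.4-fold difference. Ighm made up 92.2% and 92.5% of the MPP sums, and the other 14 genes summed to 62.0 and 61.9 CPM in LT-HSC and 795 and 791 CPM in MPP.

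Immunoglobulin gene segments took 0.0792% and 0.0481% of counts in the LT-HSC libraries and 3.56% and 3.36% in the MPP libraries. Of 157 segments tested, 154 were lower in LT-HSC and 0 higher, with a median of -6.67; reads can be split among near-identical segments. Genes of antibody-secreting cells were lower for 7 of 9 (0 higher), with summed levels of 185 and 191 CPM against 2189 and 2759 CPM, or 143 and 163 CPM against 484 and 501 CPM without Igj. Igj, the joining chain of secreted antibodies, was at 42.2 and 27.3 CPM in LT-HSC and 1704 and 2258 CPM in MPP (-5.83 ± 0.30). Prdm1, the factor of plasma cell differentiation, was at 1.92 and 1.75 CPM against 25.0 and 25.7 CPM (-3.78 ± 0.25). Both MPP libraries were above both LT-HSC libraries for these 2 genes.

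Markers of other mature lineages were lower in LT-HSC in part. NK lineage genes were lower for 7 of 8, with Klrk1, Klrd1, Prf1 and Eomes at 0 counts in both LT-HSC libraries. The sums of the NK genes were 8.06 and 8.76 CPM against 45.3 and 44.5 CPM. Those at 0 counts passed the filter only through the MPP libraries and could only be lower in LT-HSC. With a mean of at least 50 raw counts, 1 NK gene was tested, and it was lower. Klrk1, an activating NK receptor, was at least 21.8-fold higher in MPP. Mast cell, basophil and eosinophil genes were lower for 8 of 9, with sums of 22.1 and 15.6 CPM against 157 and 163 CPM. Cpa3, a mast cell protease also known from progenitors, was at 2.88 and 3.12 CPM in LT-HSC and 33.5 and 35.3 CPM in MPP (-3.52 ± 0.22). T lineage genes were lower for 3 of 6 and sums were 36.1 and 45.0 CPM against 93.6 and 101 CPM. The other members, Cd4, Cd28 and Bcl11b, did not pass and had log2 fold changes of -0.92, -0.56 and 0.38 (Bcl11b at -1.44 without LT-HSC WT 2), and 5 of 6 were lower without LT-HSC WT 2. Endothelial and stromal genes split, with 3 of 7 higher and 3 lower, and both kinds of marker lay on both sides. Among stromal markers, Col1a2, a collagen chain, was at 23.03 and 18.9 CPM in LT-HSC and 1.41 and 1.25 CPM in MPP (3.96 ± 0.28), and Pdgfrb, a growth factor receptor, at 16.5 and 13.6 CPM against 99.5 and 96.6 CPM (-2.70 ± 0.16). Among endothelial markers, the sialomucin gene Emcn was at 32.4 and 33.1 CPM against 8.28 and 8.17 CPM (1.99 ± 0.18), and Cdh5, the endothelial cadherin, at 0.384 and 0.390 CPM against 3.97 and 4.42 CPM (-3.39 ± 0.49). Pecam1, an adhesion molecule also found on blood cells, was lower (-1.23 ± 0.12), and Kdr, a vascular growth factor receptor, was higher (2.76 ± 0.61), a call that ended without MPP WT 1 (adjusted p = 0.193).

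**Figure D4:**
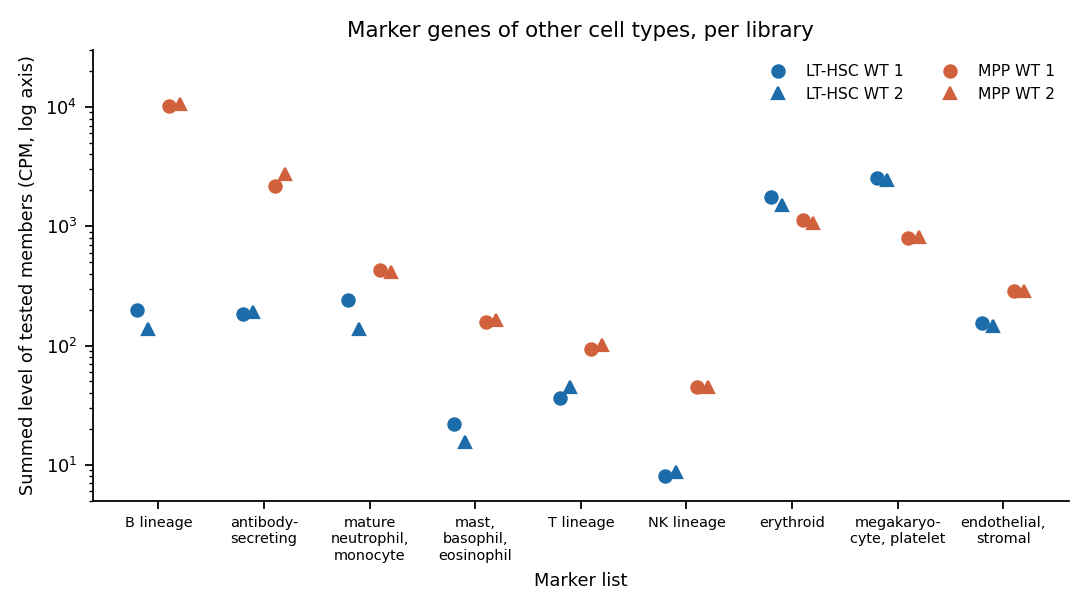
Summed level of the tested members of 9 marker lists (CPM, log axis) in each of the 4 libraries. B lineage genes sum to 198 and 138 CPM in LT-HSC WT (blue) and 10149 and 10520 CPM in MPP WT (orange), most of it Ighm. Megakaryocyte and erythroid genes sum higher in LT-HSC, and the erythroid sums overlap without Car2 (952 and 730 CPM against 779 and 697 CPM).

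By size alone, the genes with large differences and a mean of at least 50 counts included regulators of several kinds. Cyp26b1, an enzyme that breaks down retinoic acid, was at 16.3 and 19.7 CPM in LT-HSC and 0.0828 and 0.333 CPM in MPP (6.34 ± 0.47, adjusted p = 0.000407). Amotl2, an angiomotin of cell junctions, was at 30.5 and 30.6 CPM against 0.662 and 0.750 CPM (5.41 ± 0.26). Rhoj, a small GTPase known from endothelium, was at 24.9 and 24.1 CPM against 0.745 and 0.584 CPM (5.18 ± 0.28). Each was near the limit of a few counts in MPP and clearly present in both LT-HSC libraries. Obsl1, a cytoskeletal adaptor, was higher by 5.12 ± 0.25, Clip3, a microtubule-linker protein, by 5.54 ± 0.33, and Mmp17, a membrane metalloprotease, by 4.67 ± 0.32. Clca2 and Apbb1 were higher by 5.58 ± 0.59 and 6.29 ± 0.65 with LT-HSC libraries that differed from each other, at 59.7 and 24.9 CPM and at 19.6 and 8.57 CPM.

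Among the largest falls, Chst1, a carbohydrate sulfotransferase, had 0 counts in LT-HSC and was at 23.7 and 24.9 CPM in MPP, at least 83.8-fold higher there. Clec2i, a lectin ligand, Bhlha15, the secretory cell factor Mist1, and Clec10a, a macrophage lectin, also had 0 counts in LT-HSC, with bounds of 57.0-fold, 50.0-fold and 43.7-fold. Ly6d, a marker of lymphoid progenitors biased to the B lineage, had 2 counts in LT-HSC and was at 67.3 and 91.5 CPM in MPP, a ratio of 411 (95% interval 114 to 3393). Siglech, a receptor of plasmacytoid dendritic cells, had 1 count and was at 28.7 and 30.0 CPM, a ratio of 304 (54.4 to 12017). Prg2, eosinophil major basic protein and a member of the mast cell, basophil and eosinophil list, had 1 count and was at 35.0 and 31.8 CPM, a ratio of 346 (61.9 to 13681).

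DNA replication genes were lower for 9 of 33 (27.3%, beside 16.9% of all tested genes), higher for 0 and not passing for 24, with a median log2 fold change of -0.25. The count was 2 without MPP WT 1 and 3 without MPP WT 2, and 3 members were higher without LT-HSC WT 2. Ccne2, a cyclin that drives entry into S phase, was at 7.10 and 7.40 CPM in LT-HSC and 21.7 and 21.3 CPM in MPP (-1.57 ± 0.20, adjusted p = 0.00305). Subunits of the replicative helicase did not pass: Mcm2 was at 345 and 287 CPM against 350 and 316 CPM, and Mcm5 at 321 and 271 CPM against 319 and 304 CPM. Both overlapped between populations, with log2 fold changes of -0.07 ± 0.14.

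Mitosis genes were lower for 9 of 30 (30.0%), higher for 0 and not passing for 21, median -0.34, with 4 lower without either MPP library, 19 lower without LT-HSC WT 1 and 2 higher without LT-HSC WT 2. Ccnb1, the cyclin of mitotic entry, was at 17.1 and 23.6 CPM in LT-HSC and 43.0 and 51.6 CPM in MPP (-1.22 ± 0.21, adjusted p = 0.00841). Cenpf, a kinetochore protein, was at 89.0 and 109 CPM against 205 and 233 CPM (-1.14 ± 0.15), and Aurka, a spindle kinase, at 33.0 and 27.3 CPM against 66.4 and 65.0 CPM (-1.12 ± 0.15). Mki67, a proliferation antigen, was at 739 and 825 CPM against 1227 and 1371 CPM (-0.73 ± 0.15, adjusted p = 0.0136). Its adjusted p was 0.0501 without MPP WT 1 and 0.149 without MPP WT 2. Top2a (-0.35 ± 0.18) and Cdk1 (-0.33 ± 0.12), the topoisomerase and the kinase of dividing cells, did not pass (adjusted p = 0.182 and 0.0876).

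Promoters of Ccnb1, Cenpf and Aurka are shown, the called mitosis genes with the largest differences among those whose promoter holds either of 2 sets of letters known from cell cycle control. In capitals are CCAAT (NF-Y letters) and TTTGAA (the CHR letters read by the DREAM complex, which silences these genes in resting cells), on either strand. The windows on GRCm38.p6 are chr13:100786437-100786736 (minus strand) for Ccnb1, which holds CCAAT and not TTTGAA, chr1:189688037-189688336 (minus strand) for Cenpf and chr2:172370521-172370820 (minus strand) for Aurka.
Ccnb1: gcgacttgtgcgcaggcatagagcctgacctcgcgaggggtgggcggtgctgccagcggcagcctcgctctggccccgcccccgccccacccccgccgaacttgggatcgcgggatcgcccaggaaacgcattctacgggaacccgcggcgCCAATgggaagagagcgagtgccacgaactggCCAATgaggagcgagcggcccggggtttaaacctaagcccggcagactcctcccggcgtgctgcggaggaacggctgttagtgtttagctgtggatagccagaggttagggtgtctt
Cenpf: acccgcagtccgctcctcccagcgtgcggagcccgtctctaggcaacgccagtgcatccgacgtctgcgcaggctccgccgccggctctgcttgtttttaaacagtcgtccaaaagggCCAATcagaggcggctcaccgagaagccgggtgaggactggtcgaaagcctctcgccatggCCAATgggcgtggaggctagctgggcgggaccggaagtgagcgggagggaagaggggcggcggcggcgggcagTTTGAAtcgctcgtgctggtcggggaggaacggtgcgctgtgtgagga
Aurka: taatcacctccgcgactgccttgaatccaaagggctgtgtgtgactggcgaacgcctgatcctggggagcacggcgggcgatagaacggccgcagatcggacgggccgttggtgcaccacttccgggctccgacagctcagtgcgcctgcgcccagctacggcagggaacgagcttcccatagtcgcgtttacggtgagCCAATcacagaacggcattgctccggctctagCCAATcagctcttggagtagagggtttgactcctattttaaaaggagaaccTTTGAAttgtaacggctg
Of 25 mitosis genes with a promoter in the table, 18 held TTTGAA (72.0%) and 19 held CCAAT (76.0%), against 17.9% and 37.4% of all 32851 promoters. The E2F letters GCGGGAA were in 0 of the 25 and in 11 of 27 DNA replication genes (40.7%), against 4.6% of all. CCAAT was also held by 70.4% of the DNA replication genes, and TTTGAA by 18.5%. These shares count members whether or not they passed the test.

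Replication-dependent histone genes, whose mRNAs mostly lack a poly(A) tail so that poly(A) selection captures them unevenly, were lower for 29 of 59 and higher for 2, median -0.60. The count of lower genes was 12 without either MPP library. Hist1h1b, a linker histone, was at 8.64 and 11.7 CPM in LT-HSC and 35.3 and 38.2 CPM in MPP (-1.85 ± 0.21), and Hist1h4c, a histone H4 gene, at 3.26 and 5.26 CPM against 18.0 and 17.6 CPM (-2.06 ± 0.28). The 2 that were higher, Hist1h2ao (1.08 ± 0.27) and Hist1h2ap (1.02 ± 0.29), are near-identical copies between which reads could be split. Without LT-HSC WT 1 neither was called (adjusted p = 0.0662 and 0.108), nor was either without a filter on low counts (0.0799 and 0.101), nor Hist1h2ap without MPP WT 2 (0.0718).

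Cell cycle brakes split. Of 18 measured, 2 were higher and 8 lower, median -0.36, with 5 lower without either MPP library and 4 higher without LT-HSC WT 2. Cdkn1c (chr7:150644255-150646955), the imprinted inhibitor p57 that keeps stem cells out of cycle, was at 24.9 and 21.4 CPM in LT-HSC and 2.73 and 2.75 CPM in MPP, an 8.42-fold difference (3.07 ± 0.23, adjusted p = 0.000464). The inhibitor p18, encoded by Cdkn2c, went the other way, at 15.7 and 21.8 CPM against 45.5 and 45.8 CPM (-1.28 ± 0.20), as did Cdkn1b, encoding p27, at 85.6 and 70.9 CPM against 143 and 144 CPM (-0.87 ± 0.14). Cdkn1a, encoding p21, was at 261 and 306 CPM against 223 and 230 CPM and did not pass (0.33 ± 0.13, adjusted p = 0.104). Foxo3, a factor of stem cell quiescence, did not pass either (-0.31 ± 0.14, adjusted p = 0.128). Among G1 cyclins and kinases, Cdk6, whose low level delays exit of LT-HSC from rest, was at 317 and 302 CPM against 556 and 568 CPM (-0.86 ± 0.12), and Ccnd1 and Ccnd2 did not pass (0.13 ± 0.16 and -0.11 ± 0.15).

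Immediate early genes, which cells induce within minutes of a stimulus, were higher in LT-HSC for 12 of 24 and lower for 0, with 12 not passing and a median of 0.51, and 2 were lower without LT-HSC WT 2. Klf4, a zinc finger factor, was at 443 and 436 CPM in LT-HSC and 97.6 and 86.1 CPM in MPP (2.26 ± 0.13). Nr4a1 (chr15:101097277-101105223), an orphan nuclear receptor that restrains stem cell division, was at 4724 and 4785 CPM against 1933 and 1896 CPM (1.31 ± 0.16). Its relatives Nr4a2, at 519 and 568 CPM against 124 and 128 CPM (2.11 ± 0.13), and Nr4a3 (1.22 ± 0.12) were higher too. Both LT-HSC libraries lay above both MPP libraries for these genes. Jun was at 1430 and 1885 CPM against 1103 and 1205 CPM and did not pass (0.52 ± 0.18, adjusted p = 0.0711), and Fos (0.49 ± 0.15, adjusted p = 0.0487) lost its call without MPP WT 1 (0.473) or MPP WT 2 (0.324) and without a filter on low counts (0.0624). Heat shock genes were lower for 5 of 11 (3 without either MPP library) and higher for 1, with Hspa1a, the inducible Hsp70, at 3.07 and 6.04 CPM against 15.6 and 17.8 CPM (-1.87 ± 0.33).

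Interferon response genes were higher for 13 of 27, lower for 0 (1 without LT-HSC WT 2) and not passing for 14, median 0.83. Gbp6, a guanylate-binding protein, was at 49.1 and 34.7 CPM in LT-HSC and 8.53 and 7.75 CPM in MPP (2.36 ± 0.23, adjusted p = 0.00122). Rsad2, the antiviral enzyme viperin, was at 20.3 and 24.1 CPM against 5.55 and 4.67 CPM (2.12 ± 0.23). Ifitm3, a membrane protein that blocks virus entry, was at 351 and 259 CPM against 129 and 130 CPM (1.23 ± 0.17). The groups did not overlap for these 3 genes. Of the 14 members that did not pass, 5 lay below 0, Irf7 (-0.29) lowest.

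The promoters of Rsad2, Oas1a and Gbp2 are shown, the called members with the largest differences among those that hold letters of the interferon-stimulated response element. Gbp2 encodes another guanylate-binding protein (1.49 ± 0.20). Oas1a encodes an antiviral synthetase (1.54 ± 0.44, adjusted p = 0.0389), and its call ended without LT-HSC WT 1 (0.0845), without a filter on low counts (0.0988) and with limma-voom (0.0508). The letters are in capitals, TTTC spaced by any 2 bases from a further TTTC, read on either strand. The windows on GRCm38.p6 are chr12:26456403-26456702 (minus strand) for Rsad2, chr5:120907476-120907775 (minus strand) for Oas1a and chr3:142620413-142620712 (plus strand) for Gbp2.
Rsad2: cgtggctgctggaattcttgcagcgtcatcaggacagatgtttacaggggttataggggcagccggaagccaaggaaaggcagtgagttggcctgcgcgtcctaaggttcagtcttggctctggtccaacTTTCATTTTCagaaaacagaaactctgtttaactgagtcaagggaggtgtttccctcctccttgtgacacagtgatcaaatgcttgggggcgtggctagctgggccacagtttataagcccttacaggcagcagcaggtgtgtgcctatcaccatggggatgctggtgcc
Oas1a: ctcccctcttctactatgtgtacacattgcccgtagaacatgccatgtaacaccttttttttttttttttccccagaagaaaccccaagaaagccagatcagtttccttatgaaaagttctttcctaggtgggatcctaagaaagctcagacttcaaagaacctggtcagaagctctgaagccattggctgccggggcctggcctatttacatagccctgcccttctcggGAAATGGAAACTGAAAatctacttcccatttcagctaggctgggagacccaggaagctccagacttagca
Gbp2: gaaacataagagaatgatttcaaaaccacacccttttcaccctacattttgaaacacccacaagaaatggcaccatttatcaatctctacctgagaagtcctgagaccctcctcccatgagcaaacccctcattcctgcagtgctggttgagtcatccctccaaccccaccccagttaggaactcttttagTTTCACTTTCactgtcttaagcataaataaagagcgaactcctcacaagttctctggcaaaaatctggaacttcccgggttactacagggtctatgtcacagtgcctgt
These letters were in 15 of 23 list members with a promoter (65.2%), whether or not they passed, and in 3.44% of all promoters. Among MHC genes, Nlrc5, the activator of class I genes, was at 296 and 248 CPM in LT-HSC and 125 and 119 CPM in MPP (1.16 ± 0.14), and 4 of 13 genes were higher (2 without MPP WT 1, 1 without MPP WT 2) and 4 lower (0 without MPP WT 1, 1 without MPP WT 2). The class II gene H2-Ab1 was at 152 and 148 CPM against 209 and 203 CPM (-0.46 ± 0.11) and its call ended without MPP WT 1 (adjusted p = 0.289) or MPP WT 2 (0.255).

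Cytokine signalling genes moved in both directions, 6 of 21 higher and 5 lower (28.6% and 23.8%, beside 17.4% and 16.9% of all tested genes). Without a filter on low counts, 3 were higher and 5 lower. Socs2 (chr10:94847996-94879814), a feedback inhibitor induced through STAT5, was at 42.4 and 46.5 CPM in LT-HSC and 4.47 and 4.67 CPM in MPP, a 9.71-fold difference (3.28 ± 0.19, adjusted p = 0.000183). Cish, a related inhibitor, was at 18.0 and 26.3 CPM against 4.39 and 4.08 CPM (2.38 ± 0.27). Receptors for inflammatory cytokines were among the lower genes: Il1r1 was at 13.8 and 17.5 CPM against 105 and 115 CPM (-2.81 ± 0.17), Il18r1 at 2.30 and 3.31 CPM against 28.7 and 29.3 CPM (-3.36 ± 0.25), and Lifr, the receptor for leukemia inhibitory factor, at 1.54 and 1.17 CPM against 16.8 and 18.3 CPM (-3.68 ± 0.30). In each of the 5 genes the populations were separate.

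In the TGF-beta pathway, which holds LT-HSC in quiescence, the receptor genes split. Of all pathway genes measured, 31.2% were higher and 25% lower, beside 17.4% and 16.9% of all tested genes. The type I receptor Tgfbr1 was lower in LT-HSC, at 22.6 and 30.0 CPM against 85.3 and 94.2 CPM (-1.77 ± 0.18), and so was the type II receptor Tgfbr2, at 83.7 and 101 CPM against 158 and 178 CPM (-0.87 ± 0.15). The co-receptor Tgfbr3 (betaglycan) was higher, at 223 and 232 CPM against 53.6 and 54.4 CPM (2.07 ± 0.12). The inhibitory Smads, Smad6 (1.76 ± 0.33) and Smad7, at 298 and 314 CPM against 135 and 134 CPM (1.18 ± 0.12), were higher as well, with 5 of 16 pathway genes higher and 4 lower (2 without MPP WT 2). Of 22 Wnt pathway genes, 6 were higher and 0 lower, with 3 lower without LT-HSC WT 2 and 3 lower with all 8 libraries in the fit. The Wnt share in the main fit was 27.3% higher, beside 17.4% of all tested genes. Fzd4, a Wnt receptor, was at 17.3 and 18.5 CPM against 3.39 and 3.67 CPM (2.34 ± 0.23), and Porcn, the enzyme that lipidates Wnt ligands, was higher by 3.98 ± 0.63 on 10 counts in MPP.

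Homing and adhesion genes were higher for 5 of 15 and lower for 6 (33.3% and 40%, beside 17.4% and 16.9% of all tested genes). Cxcr4, the receptor that retains stem cells in marrow, was at 104 and 133 CPM in LT-HSC and 322 and 341 CPM in MPP (-1.49 ± 0.16). Itgal, the leukocyte integrin CD11a, was at 35.3 and 26.9 CPM against 237 and 205 CPM (-2.83 ± 0.18). The junctional adhesion molecules Jam2 (2.93 ± 0.39) and Jam3 (2.35 ± 0.38) were higher, Jam3 at 24.2 and 11.9 CPM against 3.48 and 3.58 CPM. The populations did not overlap for any of the 4.

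Imprinted genes, a network linked to growth restraint in stem cells, were higher for 4 of 9 and lower for 0, median 1.64, besides Cdkn1c above. Grb10 (chr11:11830511-11938686), an adaptor that dampens insulin signalling, was at 118 and 141 CPM in LT-HSC and 16.1 and 16.4 CPM in MPP, a 7.96-fold difference (adjusted p = 0.00014). Sgce was at 36.3 and 26.5 CPM against 8.44 and 8.17 CPM (1.92 ± 0.22) and Phlda2, a growth restrainer, at 5.37 and 5.65 CPM against 0.580 and 0.333 CPM (3.55 ± 0.45). Igf2, the growth factor, had 21 counts in LT-HSC and 3 in MPP, a ratio of 16.3 (95% interval 4.86 to 85.3), and its call ended without MPP WT 1 (adjusted p = 0.0763). Of 6 Hox genes, Hoxb4, known for expanding stem cells, was at 24.8 and 27.3 CPM against 9.27 and 8.92 CPM (1.51 ± 0.19), with 3 higher and 1 lower in all (1 higher without MPP WT 2, 0 lower without 3 of the libraries in turn).

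Of 17 genes of TET enzymes and DNA methylation, 76.5% did not pass, beside 65.7% of all tested genes. Tet1 is the gene knocked out in the marrow given to the other mice, and it encodes an enzyme that oxidizes methylcytosine. It was at 63.7 and 83.3 CPM in LT-HSC and 99.9 and 110 CPM in MPP. Both LT-HSC libraries were below both MPP libraries, yet the difference did not pass (-0.52 ± 0.17, adjusted p = 0.056). Tet2 (-0.48 ± 0.15, adjusted p = 0.0531), Tet3 (-0.13 ± 0.14), Dnmt1 (0.19 ± 0.20), Dnmt3a (-0.01 ± 0.12) and Dnmt3b (0.03 ± 0.23) did not pass either. Mbd4, a glycosylase that repairs deaminated methylcytosine, was at 11.3 and 15.8 CPM against 41.1 and 44.0 CPM (-1.65 ± 0.21) and was 1 of 4 lower genes (2 without either MPP library). Idh1, which makes the TET cofactor, was also lower, at 8.06 and 12.3 CPM against 25.9 and 24.0 CPM (-1.30 ± 0.24). Polycomb genes, taken next, were higher for 26.3% and lower for 10.5%, beside 17.4% and 16.9% of all tested genes. In the Polycomb group, Pcgf2 (Mel18) was at 58.5 and 56.1 CPM against 18.96 and 15.7 CPM (1.73 ± 0.17), and the methyltransferases Ezh1 and Ezh2 lay on opposite sides, at 0.87 ± 0.16 (adjusted p = 0.0103, or 0.067 without MPP WT 2) and -0.41 ± 0.13 (adjusted p = 0.0545). Of 19 Polycomb genes 5 were higher and 2 lower, against 2 and 0 without MPP WT 1 and 1 and 0 without MPP WT 2.

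Few genes of the housekeeping groups passed the test in the main fit. The largest share, 15.3% lower among mitochondrial ribosomal proteins, was below the 16.9% of all tested genes. Cytoplasmic ribosomal proteins were higher for 1 of 76 and lower for 0, median 0.16, though 12 were higher without MPP WT 2 and 4 without LT-HSC WT 2. Ribosome biogenesis genes were lower for 2 of 28, median -0.01, with Ncl at -0.15 ± 0.17 and Npm1 at -0.61 ± 0.40 (nucleolin and nucleophosmin), and without LT-HSC WT 2 5 were higher and 4 lower. Nuclear genes of oxidative phosphorylation were lower for 7 of 76 (2 without MPP WT 1, 0 without MPP WT 2) and higher for 0 (7 without MPP WT 1, 20 without LT-HSC WT 2), median 0.12. Mitochondrial ribosomal proteins were lower for 11 of 72 (3 without MPP WT 1, 2 without MPP WT 2) and higher for 1 (11 without LT-HSC WT 2), led by Mrpl43 at 3.45 and 5.06 CPM against 21.9 and 20.3 CPM (-2.31 ± 0.26). Proteasome genes were higher for 1 and lower for 1 of 36, and without LT-HSC WT 2 for 8 and 4. DNA repair genes were higher for 1 and lower for 2 of 25. With all 8 libraries in the fit 13 were lower, and with replicate number as a block 12 were lower. That block also gave 19 higher and 3 lower cytoplasmic ribosomal proteins, and 17 higher and 15 lower oxidative phosphorylation genes.

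Glycolysis and pyruvate genes were higher for 8 of 21 and lower for 1, median 0.47, with 3 higher without MPP WT 1 and 1 without MPP WT 2. Ldhb, the lactate dehydrogenase subunit that favours pyruvate, was at 17.5 and 21.0 CPM in LT-HSC and 3.15 and 6.59 CPM in MPP (1.98 ± 0.37, adjusted p = 0.0105). Pdk4, a kinase that keeps pyruvate out of mitochondria, was at 1.92 and 3.51 CPM against 0.248 and 0.0834 CPM (3.91 ± 0.68), and its adjusted p was 0.0536 without MPP WT 2. Pgam1, a glycolytic mutase, was lower, at 52.4 and 47.3 CPM against 120 and 107 CPM (-1.19 ± 0.14). The glucose transporter Slc2a1 (0.08 ± 0.15) and the lactate dehydrogenase subunit Ldha (0.36 ± 0.15) did not pass.

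Genes of nucleotide and one-carbon synthesis were lower for 6 of 16 (3 without MPP WT 1, 1 without MPP WT 2) and higher for 0, with Phgdh, the first enzyme of serine synthesis, at 21.1 and 30.6 CPM against 52.3 and 58.6 CPM (-1.102 ± 0.21). Of 23 antioxidant genes 5 were higher and 4 lower (21.7% and 17.4%, near the 17.4% and 16.9% of all tested genes), and at most 2 in either direction without either MPP library. Nqo1, a quinone reductase, was at 19.6 and 9.35 CPM in LT-HSC and 4.06 and 3.92 CPM in MPP (1.86 ± 0.39), and Hmox1, heme oxygenase, at 3.45 and 4.67 CPM against 15.5 and 16.2 CPM (-1.96 ± 0.26). Autophagy and lysosome genes (18.8% higher) and cholesterol genes (15.8% higher, 10.5% lower) were also near or below the shares of all tested genes. Ulk1, the kinase that starts autophagy, was at 246 and 178 CPM against 109 and 94.0 CPM (1.07 ± 0.19) and was 1 of 3 higher genes among 16 of autophagy and lysosomes (1 without either MPP library). Of 19 cholesterol genes 3 were higher and 2 lower, and without MPP WT 1 it was 0 and 1, without MPP WT 2 1 and 1, and without LT-HSC WT 2 5 and 4.

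**Figure D5:**
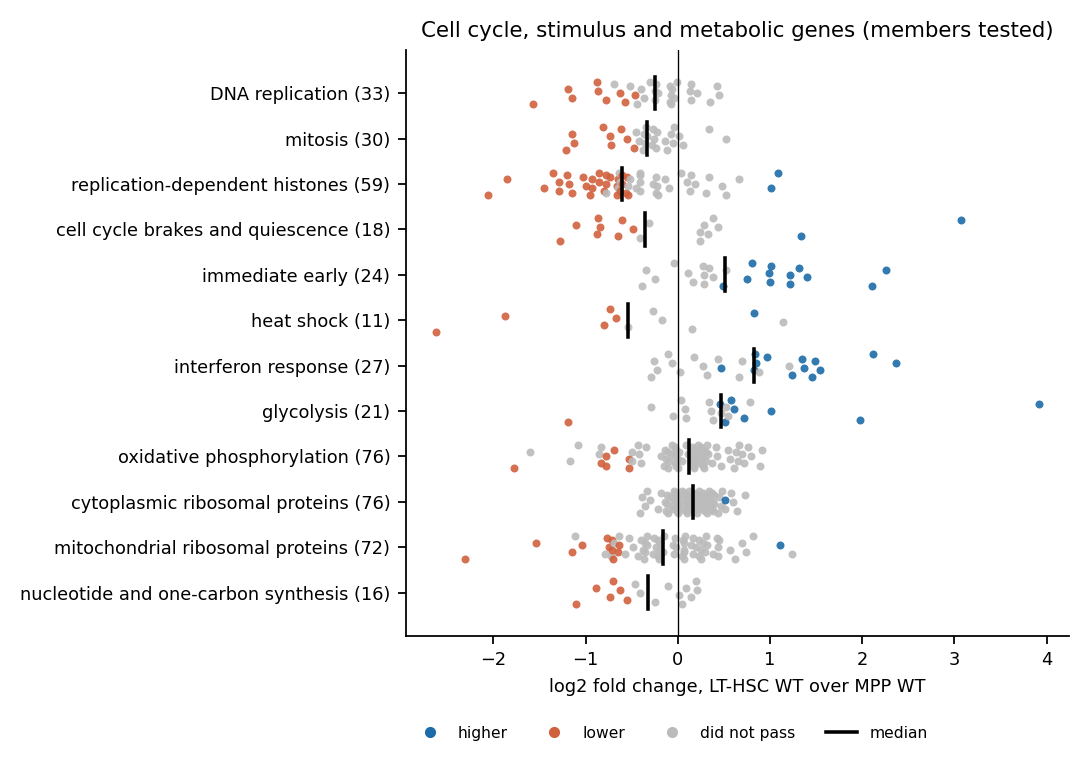
Log2 fold change (LT-HSC WT over MPP WT) of each tested member of 12 lists of cell cycle, stimulus and metabolic genes, coloured by call, with the median as a black bar and genes without LT-HSC counts drawn at their bound. Immediate early and interferon genes lie mostly to the right (medians 0.51 and 0.83), histone and mitosis genes to the left (medians -0.60 and -0.34), and ribosomal proteins near 0 (0.16).

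The direction of change also went with the genomic span of a gene, from its first to its last base in the deposited tables. Of 201 tested genes over 500 kb, 47.3% were higher and 4.48% lower in LT-HSC, with a median log2 fold change of 0.95. The shift was much smaller for the 1839 genes of 100 to 500 kb, of which 24.7% were higher and 13.7% lower, median 0.16. Of 4672 genes up to 10 kb, 12.2% were higher and 19.3% lower, median -0.03. A set of 17 long genes that are best known from tissues other than blood was higher for 11 and lower for 0 (4 higher without MPP WT 1, 5 without MPP WT 2), among them Lsamp, a neuronal adhesion gene, at 15.7 and 9.54 CPM against 3.23 and 2.08 CPM (2.24 ± 0.38). Of the genes named here, 12 span over 100 kb: Vwf, Neo1, Tek, Mecom, Tgfbr3, Grb10 and Lsamp, which were higher, Ebf1, Pax5 and Cdk6, which were lower, and Alcam and Dnmt3a, which did not pass. Among these 12 genes, Mecom and Lsamp span over 500 kb and the others 100 to 500 kb. What part such a shift by span has in the differences of the 12 genes was not tested.

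LT-HSC KO and MPP KO were compared within a fit of all 8 libraries. Scaling and dispersion were therefore shared with the wild-type libraries. Cell input, deposited table and depth differed between the KO populations in the same way as between the wild-type ones. Of the 5022 genes called between the wild-type populations, 4264 (84.9%) had the same direction between LT-HSC KO and MPP KO, 3050 had it and were called there, and 213 were called in the opposite direction. The share of all tested genes with the same direction was not computed, so 84.9% has no background beside it. The interaction of population and genotype, fitted on all 8 libraries, passed for 3663 of 16551 genes (22.1%). Among the 6 markers it passed for Vwf and Flt3 and not for Slamf1 (adjusted p = 0.114), Procr (0.161), Dntt (0.259) or Mpo (0.121). Vwf was at 203 and 192 CPM in LT-HSC KO and 28.7 and 20.8 CPM in MPP KO, and Flt3 at 41.4 and 37.1 CPM and 390 and 348 CPM. The difference between LT-HSC and MPP kept its direction for both genes and was smaller in the KO libraries, by 1.601 ± 0.23 for Vwf (adjusted p = 0.00422) and 0.70 ± 0.16 for Flt3 (adjusted p = 0.0191), on the log2 scale.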

How the data were processed

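Poly(A) RNA of flow-sorted cells was sequenced on an Illumina HiSeq, per the labels' protocols. The authors deposited raw counts per gene in 1 table for LT-HSC and 1 for MPP; the submitters' processing notes name CASAVA, TopHat and mm9. Counter, annotation and strand setting: not given in the sources used here. Overlapping, antisense and near-identical genes are therefore uncertain. The tables were joined by gene identifier, and genes in only 1 table (1792 LT-HSC, 1011 MPP) were not compared. Counts of 4 wild-type libraries were filtered (filterByExpr), scaled by TMM and tested with edgeR 4.0.16 (quasi-likelihood F test, R 4.3.3, Benjamini-Hochberg, threshold 0.05). The interaction used all 8 libraries. Standard errors were derived as the size of the log2 fold change over root F. For genes with 0 counts in a group, the fold is a bound against 3 counts over the group; for 1 to 3 counts, a ratio with an exact 95% binomial interval is given. Alternatives included DESeq2 1.42.0 and limma 3.58.1.

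Members and lists were chosen with earlier results of these data known. Named genes are the 6 markers, starred list members, up to 6 called genes per list with the largest change, and the 15 largest rises and 15 largest falls with a mean of at least 50 counts. Bcl11a, Bcl11b, Bmi1, Cd4, Cd28, Cd34, Gp5, H2-Ab1, Hist1h2ao, Hist1h2ap, Irf7, Kit, Ly6a, Alcam, Plek and Selp were named after their values were seen. Some genes that meet the rule are not reported here. Promoter windows came from RefSeq, matched by Ensembl gene identifier, or by symbol where that gave no match. The ETS, GATA and interferon letters were chosen after values were seen. On simulated counts of 14381 genes for this comparison, 63% of 2-fold and 97% of 4-fold changes were recovered, with 4 false calls among 164. The simulated libraries were independent, with the same dispersion for all genes. Only 200 genes were changed, all above a minimum expected count. These rates hold for the simulation and may not carry over to the data.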

Additional observations from a re-analysis of the deposited data

Results flagged for a closer look

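The LT-HSC against MPP difference of 2 markers differed between wild-type and Tet1 KO libraries, by the interaction term of a fit on all 8 libraries (edgeR, quasi-likelihood test, 2 libraries per group). For Vwf the log2 fold change was 4.60 in wild-type and 2.996 in KO libraries, a difference of 1.601 (SE 0.23, adjusted p = 0.00422). For Flt3 it was -3.93 and -3.23, a difference of -0.70 (SE 0.16, adjusted p = 0.0191). The interaction passed for 22.1% of all genes tested, which is the background for these 2 genes.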

How the results depend on the processing

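Input cell number, deposited table and depth cannot be told apart from population, and each group has 2 libraries. The counts of 2544 higher and 2478 lower genes became 4038 and 3781 with a replicate block and 1248 and 1144 when tested against a 1.5-fold change (glmTreat). Leaving out 1 library gave 1288 to 3372 higher and 1176 to 3697 lower genes. Under the other alternatives both counts stayed within 1.5 times. Deviations of same-numbered libraries correlated at 0.513, and the main fit had no block for this. With 2 pairs and no label of a shared animal or day, whether the libraries are paired cannot be told. The block ended no call among the 137 called genes named. No called gene named changed direction under any alternative run. Of 43 gene lists, 26 had a count of higher or lower members that moved by over 1.5 times, or to or from 0, without LT-HSC WT 2, without MPP WT 1 and without MPP WT 2, 23 did so with the replicate block, 12 without LT-HSC WT 1, 13 with all 8 libraries, 10 with DESeq2 and 1 with limma-voom. By the same rule, 28 lists moved with glmTreat, 12 without a filter on low counts and 11 with a mean of at least 50 counts. Upper quartile scaling moved 9, library size only 8, TMM outside the lists of other cell types 4 and RLE scaling 2. Genes that were not called and changed sign when 1 library was left out ranged from -1.44 to 1.15 (Bcl11b), -0.056 to 0.249 (Ccnd1), -0.320 to 0.043 (Ccnd2), -0.095 to 0.392 (Dnmt1), -0.097 to 0.030 (Dnmt3a), -0.351 to 0.291 (Dnmt3b), -0.081 to 0.363 (Hlf), -0.219 to 0.016 (Mcm2), -0.207 to 0.0075 (Mcm5) and -0.228 to 0.086 (Plek). Dnmt3a was at 0.016 with upper quartile scaling and 0.022 with a mean of at least 50 counts. Dnmt3b was at -0.0024 with library size only, -0.0020 without a filter, -0.0027 with limma-voom, -0.027 with all 8 libraries and -0.0074 with TMM outside the lists of other cell types, chosen after seeing the data. The cause was not tested.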

Other observations

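Some genes were in only 1 of the 2 tables and were not compared. In the LT-HSC table, Sfrp1, a secreted Wnt antagonist, had 90 and 108 counts in the wild-type libraries, Foxa3 19 and 29, Hoxb8 13 and 18, and Plat, tissue plasminogen activator, 11 and 30. In the MPP table, the immunoglobulin segment Igkv1-99 had 1280 and 1131 counts and Tifab 355 and 336.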
